A study of Mus musculus with 32 samples.

Results

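The microglia genes described here are 32 of the 56415 genes in the annotated gene count table, taken by symbol from a list of names with no threshold on any value. They were arranged by known role as 11 homeostatic genes, 11 genes of activation and phagocytosis, and 10 genes of general myeloid identity. Counts came from polyA RNA-seq of 32 libraries of 16 C57BL/6J mice, each mouse giving a library of dorsal hippocampus and a library of cerebellar vermis. By genotype the animals were wild-type (WT) or knockout (KO) for ACSS2, an enzyme that turns acetate into acetyl-CoA, and prenatal exposure was to ethanol (cPAE) or saline (cPSE). Dams were kept with studs for 5 nights and then injected once daily into the peritoneum until birth with ethanol at 3 g/kg, as a 20% solution by volume, or with an equal volume of saline, so the control offspring also came from injected dams. Weaning was at postnatal day 21 and tissue was taken at day 40 to 50 in all groups, long after the last injection. Each of the 8 groups (WT saline, WT ethanol, KO saline and KO ethanol in each tissue) held 4 mice, males M1 and M3 and females F1 and F3. The labels name neither the litters nor how the knockout was made, and they give the ACSS2 deletion no cell type limit.

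Microglia are the resident macrophages of the brain, derived from the yolk sac and kept alive by signalling through the receptor Csf1r. In the resting tissue they survey synapses and vessels with purine receptors such as P2ry12 and the fractalkine receptor Cx3cr1, and they clear debris and synapses with complement C1q and the receptor Trem2, which signals through its adaptor Tyrobp. When microglia respond to injury or disease, homeostatic genes typically fall while genes of phagocytosis, lysosomes and antigen handling rise, so the balance of the groups of genes is often read as a sign of their state. 

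Library totals were 54092519 to 96664509 counts in hippocampus and 23085928 to 73803508 in vermis, with KO ethanol vermis F3 the shallowest. Acss2 stood at 49.7 to 62.6 CPM (counts scaled to the library total) in WT hippocampus and 10.6 to 13.6 in KO hippocampus, and the WT and KO ranges also stayed apart in vermis (55.9 to 68.4 and 11 to 20.4 CPM). All 32 genes were detected in every library and passed the low-count filter in both tissues. In vermis 2 libraries stood apart from their groups over all genes. The chi-square per degree of freedom between the counts of WT saline F1 and those of the other libraries of its group was 185 to 211, against 8.79 to 18.3 among those. For KO ethanol F1 it was 97.1 to 160.2, against 11.2 to 56.1. The main vermis results are also given without them, and for the marker lists these fits were chosen after seeing the data. Itgam shares 68.7% of its exon bases with Gm49368 on the same strand in the GENCODE M21 annotation, and Csf1r 15.1% with Hmgxb3 on the opposite strand, so their counts may include or lose reads of a neighbour.

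The promoters of genes that passed a genotype test are shown for reference, since PU.1 (encoded by Spi1), the transcription factor that sets myeloid fate, binds purine-rich words around the core GGAA. RefSeq sequences of the 250 bases before a transcript start (build GRCm38.p6) were matched by symbol for 24 of the 32 genes, in 32 windows. Tyrobp was not matched. Capitals mark the word GAGGAA on either strand, so that TTCCTC is the same word on the other strand. Of the 4 genes shown, Cx3cr1 codes for the fractalkine receptor, Siglech for a sialic-acid binding lectin, Aif1 for the calcium-binding protein IBA1 and Cd53 for a leukocyte tetraspanin.
Cx3cr1 (chr9:120068297-120068546, reverse strand): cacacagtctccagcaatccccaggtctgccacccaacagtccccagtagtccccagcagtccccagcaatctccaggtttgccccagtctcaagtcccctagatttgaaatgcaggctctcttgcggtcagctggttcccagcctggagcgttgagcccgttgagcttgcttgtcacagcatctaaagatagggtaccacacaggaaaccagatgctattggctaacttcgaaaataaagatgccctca
Siglech (chr7:55767934-55768183, forward strand): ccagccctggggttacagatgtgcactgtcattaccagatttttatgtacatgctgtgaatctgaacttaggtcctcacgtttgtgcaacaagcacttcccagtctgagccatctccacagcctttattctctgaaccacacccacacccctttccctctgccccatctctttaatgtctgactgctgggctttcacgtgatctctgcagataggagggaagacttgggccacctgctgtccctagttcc
Aif1 (chr17:35176053-35176302, reverse strand): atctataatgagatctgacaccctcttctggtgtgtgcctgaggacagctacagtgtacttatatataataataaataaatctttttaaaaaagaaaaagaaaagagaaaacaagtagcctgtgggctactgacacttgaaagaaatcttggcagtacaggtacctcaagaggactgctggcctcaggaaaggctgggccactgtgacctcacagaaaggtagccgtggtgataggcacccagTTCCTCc
Cd53 (chr3:106790150-106790399, reverse strand): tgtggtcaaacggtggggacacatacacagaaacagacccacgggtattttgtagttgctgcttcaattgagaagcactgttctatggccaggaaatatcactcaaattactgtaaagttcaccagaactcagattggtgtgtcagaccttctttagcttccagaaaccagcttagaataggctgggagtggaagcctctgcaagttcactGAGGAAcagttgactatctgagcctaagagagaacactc
At the start 4 words were searched. GAGGAAGT, which contains GAGGAA, was in 1 of the 24 genes (C1qc; 3.12% of windows against 2.44% of all 32851 RefSeq windows of that length), and the composite word GGAANNGAAA in 0 windows against 2.3%. TATAAA was in 15.6% against 12.4%, and the core GGAA in 96.9% against 93.4%. The shorter word GAGGAA was added after the longer one had been seen in 1 gene only. It was found in 14 of 24 genes, or 46.9% of windows against 23.3%, and because the word was picked after that look the difference was not tested. Among the genes shown, Aif1 and Cd53 hold 1 match each and Cx3cr1 and Siglech hold none, which says nothing about binding.

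Per length of transcript (RPKM, which is CPM per kilobase of exon), the lysosomal proteases and complement led in both tissues. In hippocampus, Lgmn, the protease legumain, measured 34.3 ± 3.9 RPKM (SD, n = 16), and Ctss, cathepsin S, 25 ± 2.84. The complement chains C1qb and C1qa followed at 20.7 ± 2.37 and 18.1 ± 2.32 RPKM, with ranges that overlap each other. Csf1r, P2ry12, C1qc, Laptm5 and Cx3cr1 came next, between 9.65 and 12.6 RPKM, where each gene's mean lay within 1 SD of the next, except between Laptm5 and Cx3cr1. At the lower end stood the transcription factors Spi1 (0.959 ± 0.182 RPKM) and Irf8 (0.618 ± 0.0710), Cd14, a co-receptor for bacterial lipopolysaccharide (0.840 ± 0.166), and Ptprc, the pan-leukocyte phosphatase CD45 (0.216 ± 0.0366). In vermis Lgmn was again highest at 34.7 ± 5.64 RPKM and Ptprc lowest at 0.107 ± 0.0552. Counts behind the scarcest genes were low there, for Aif1 from 18 to 110 per library.

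Vermis carried less RNA of the microglia genes than hippocampus of the same mice. In bulk tissue fewer cells of a type and less RNA per cell cannot be told apart. In a model with mouse as a block (edgeR, Benjamini-Hochberg 0.05 over all genes), 31 of 32 genes were lower in vermis and 0 higher. Of all 24458 genes 72.6% were called in either direction, 9300 lower and 8455 higher in vermis. The median log2 fold change, vermis against hippocampus, was -0.03 over all genes, -1.7 over the homeostatic genes, -1.36 over the identity genes and -1.2 over the activation genes. P2ry12, the ADP receptor that steers microglial processes, differed most. It ranged from 25.2 to 35.7 CPM in hippocampus (median 29.5) and from 5.56 to 15 in vermis (median 8.1). The ranges did not overlap, and P2ry12 was lower in vermis in 16 of 16 mice (log2 -1.93 ± 0.07 SE, adjusted p = 1.05e-13). Siglech fell by a similar amount, from a median of 11.3 CPM to 3.36 (log2 -1.87 ± 0.06, adjusted p = 2.13e-14), as did Gpr34, a lysophosphatidylserine receptor (log2 -1.82 ± 0.08). Cx3cr1 ranged from 36.7 to 53.6 CPM (median 42) in hippocampus and from 8.59 to 29.6 CPM (median 12.8) in vermis, and Csf1r from 65.1 to 83.8 CPM (median 73.2) and from 21.2 to 51 CPM (median 25.8). Neither gene's ranges overlapped. Tmem119, a membrane protein used as a microglial marker, had log2 -1.65 ± 0.08, and the identity genes Mpeg1, a pore-forming protein of macrophages, and Laptm5, a lysosomal membrane protein, had log2 -1.59 ± 0.06 and -1.38 ± 0.06.

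The activation genes spanned a wider range between the tissues. Trem2 was lower in vermis in 16 of 16 mice (log2 -1.47 ± 0.07), and C1qa, C1qb and C1qc likewise (log2 -1.1, -1.24 and -1.2). Lgmn, a protease that many cell types make, was the exception: it ranged from 66 to 103 CPM in hippocampus and from 71.4 to 123 in vermis, lower in 8 of 16 mice (log2 -0.06 ± 0.04, adjusted p = 0.220). Tyrobp was lower in vermis in 11 of 16 mice only, with differences per mouse from -1.82 to 0.68 on the log2 scale, the widest spread of any of the genes. It was lower in every WT mouse, and the mice where it was higher were KO saline F1 and F3 and KO ethanol M1, M3 and F1. Slco2b1, an organic anion transporter that endothelium also makes, had the smallest difference of the homeostatic genes (log2 -0.72 ± 0.06). Of the 20 other microglia-enriched genes in the table, 17 were lower and 3 higher in vermis, and of 10 tested monocyte and neutrophil genes 9 were higher. Border-associated macrophage genes were mixed, with 4 of 13 higher and 2 lower.

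**Figure D1:**
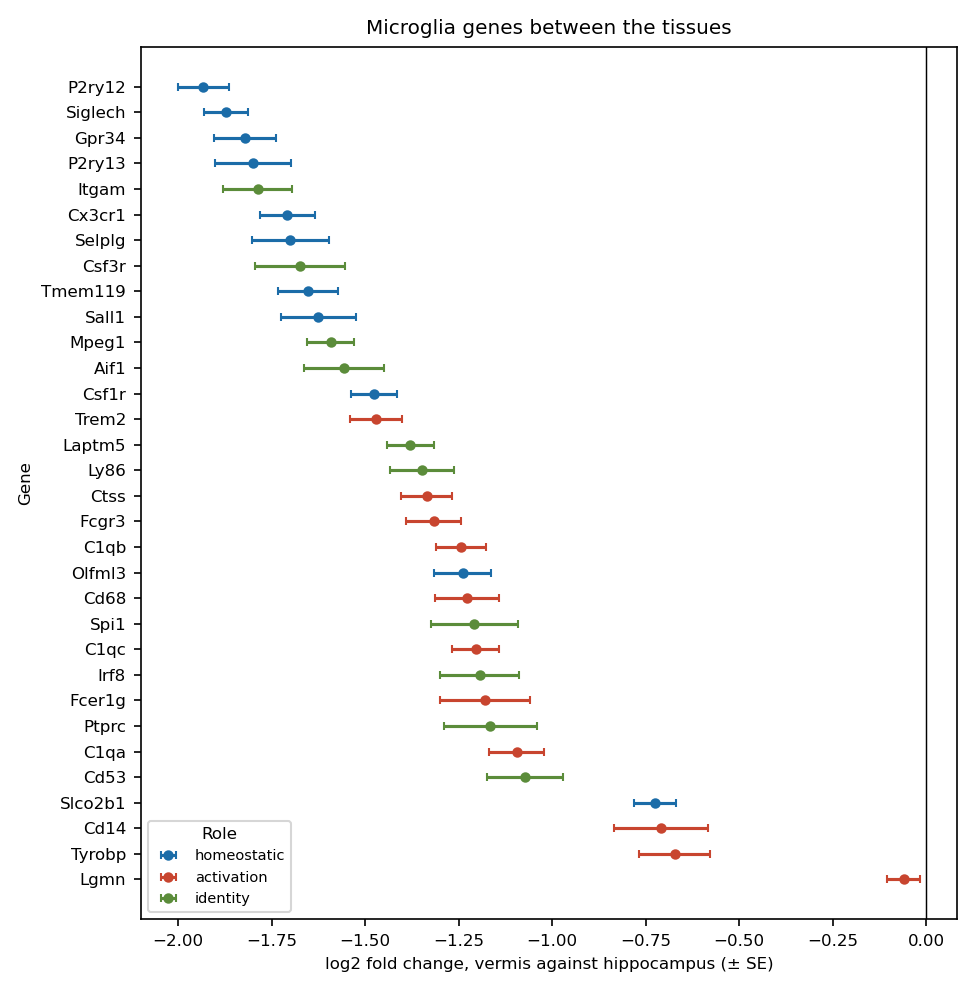
Log2 fold change of each microglia gene in vermis against hippocampus (x axis, edgeR with mouse as a block, bars are SE, n = 16 mice), coloured by role and sorted. All fold changes lie below 0, Lgmn closest at -0.06, and the homeostatic genes other than Olfml3 and Slco2b1 lie further left than every activation gene.

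The balance of homeostatic and activation genes was compared per library as the mean log2 CPM of the activation genes minus that of the homeostatic genes. The difference was -1.03 to -0.85 in WT saline hippocampus, -1.03 to -0.89 in WT ethanol, -1.12 to -0.78 in KO saline and -1.1 to -0.91 in KO ethanol, so the 4 hippocampal groups overlapped. In vermis it was -0.66 to -0.48 in WT saline, -0.69 to -0.21 in WT ethanol, -0.41 to -0.12 in KO saline and -0.54 to -0.29 in KO ethanol. Every vermis library lay above every hippocampal library, as the smaller tissue difference of the activation genes entails. Within vermis the KO saline libraries lay above all WT saline libraries, while the KO ethanol group overlapped both. The mean of the homeostatic genes itself was 2.7 ± 0.19 log2 CPM (SD, n = 4) in WT saline vermis, 2.6 ± 0.30 in WT ethanol, 2.64 ± 0.09 in KO saline and 3.1 ± 0.52 in KO ethanol. For activation genes the values were 2.15 ± 0.13, 2.15 ± 0.17, 2.39 ± 0.10 and 2.65 ± 0.48. From WT saline to KO saline vermis the homeostatic ranges overlapped (2.47 to 2.94 and 2.52 to 2.73), while the activation ranges did not (1.98 to 2.28 and 2.33 to 2.54). In KO ethanol vermis the means of both roles were higher than in the other vermis groups, and their SD was the largest of the 8 groups. No test was made on these means. C1qa, C1qb, C1qc, Trem2 and Tyrobp, named above for resting tissue, are among the activation genes, as is Lgmn, which many cell types make. The balance is therefore not by itself a measure of microglial state.

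**Figure D2:**
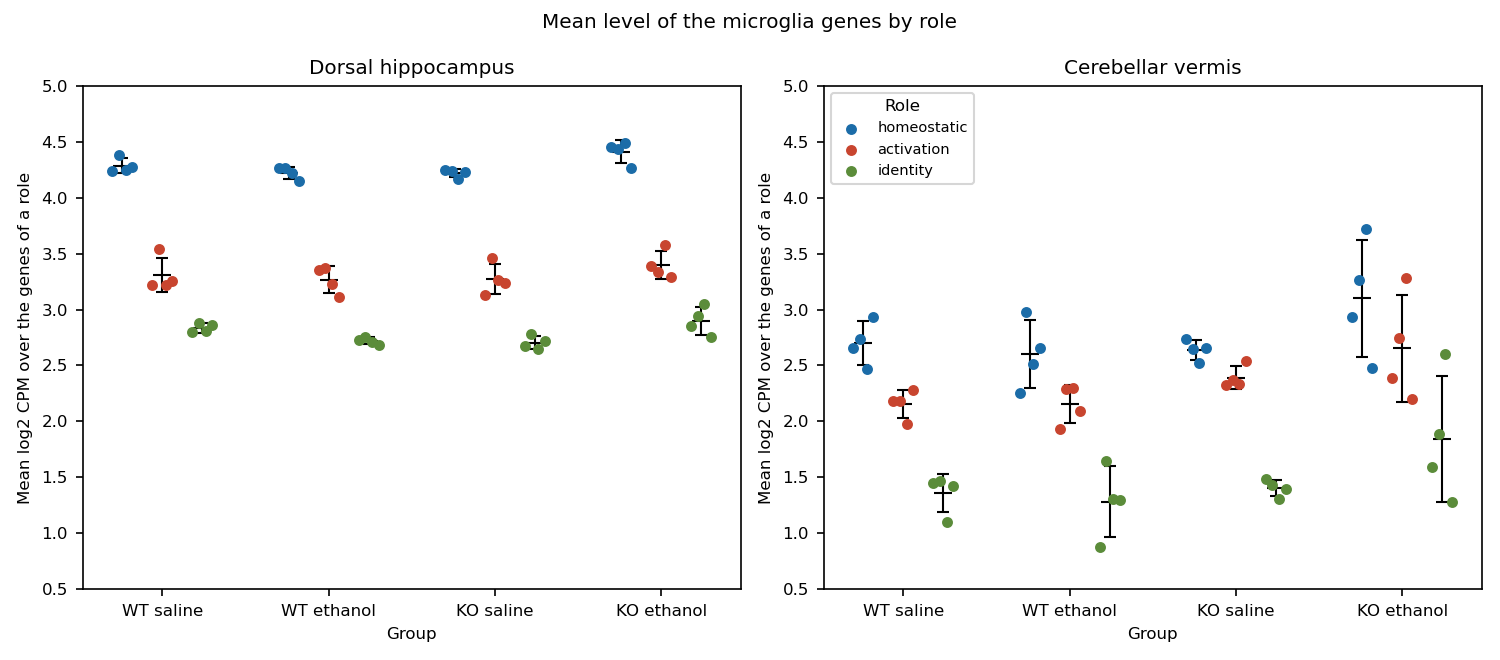
Mean log2 CPM over the genes of each role (y axis) in each library (points) by group (x axis), with group mean and SD (n = 4). Homeostatic genes lie above activation and identity genes in every library, and the KO ethanol vermis libraries are the most spread, from 2.48 to 3.72 for homeostatic genes.

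KO ethanol vermis F1 had the highest level of all 32 genes among the 16 vermis libraries. Its summed CPM over the genes was 505, against 360.0, 287 and 240.2 in M3, M1 and F3 of its group and 217 to 295 in the other vermis groups. Homeostatic, activation and identity genes were 0.82, 0.84 and 1.01 log2 above the mean of the rest of the group, so its balance of -0.43 stayed inside the range of the other vermis libraries. Markers of other cells were unusual in the same library. Oligodendrocyte markers averaged 8.97 log2 CPM (others 7.25 to 7.87), erythroid genes 11.4 (others 4.74 to 8.96), monocyte and neutrophil genes 1.35 (others -2.32 to -0.04), and lymphocyte genes -0.52 (others -3.63 to -2.46). Markers of Purkinje and granule neurons averaged 8.11, below the 9.11 to 10.02 of the others.

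Among single markers, Hba-a1, a haemoglobin chain, measured 486, 445, 7050 and 249 CPM in M1, M3, F1 and F3 of the KO ethanol vermis group. The neutrophil gene S100a9 measured 1.61, 0.308, 11.7 and 0.262 CPM, and the T cell gene Cd3e was at 0 in M3 and F3. Mrc1, a marker of border-associated macrophages, measured 4.63, 6.47, 4.04 and 4.62 CPM, so F1 was not the highest there. Nor was it for Cd163, a scavenger receptor of border-associated macrophages (0.878, 1.88, 1.37 and 0.480 CPM), or Lyve1, a hyaluronan receptor (0.683, 0.993, 0.433 and 1.22). Mbp, a main protein of myelin, measured 1860, 2257, 5274 and 1827 CPM, and Car8, a Purkinje cell gene, 1772, 1109, 486 and 1930. Within this group the order of the microglia genes, F1 above M3, M1 and F3, was also the order of Mbp and the reverse of the order of Car8. The hippocampus of the same mouse also had the highest sum of its tissue, at 696 CPM against 528 to 639 in the others, and the highest oligodendrocyte mean (9.39; others 7.77 to 8.86). Marker lists were counted for KO against WT ethanol vermis. Of 10 oligodendrocyte genes 10 were positive (median log2 0.46) and 0 passed, and of 8 Purkinje and granule cell genes 8 had negative ones (-0.39) and 0 passed. Of 5 erythroid genes 5 were positive (2.51) and 2 passed, of 10 tested monocyte and neutrophil genes 9 were positive and 1 passed, and of 6 tested lymphocyte genes 6 were positive and 0 passed. Of 13 tested border-associated macrophage genes all 13 were positive (0.60) and 1 passed, against 7.53% of all genes called in this comparison. Without F1 the medians were -0.01 for oligodendrocytes (5 positive), -0.13 for Purkinje and granule cells (7 negative), 0.38 for erythroid genes (5 positive), -0.21 for monocytes and neutrophils (3 positive), -0.01 for lymphocytes (3 positive) and 0.49 for border-associated macrophages (11 positive). Of these lists, 1 border-associated macrophage gene and 0 others then passed, against 5.01% of all genes. The part of tissue composition and blood in the microglia values was not tested.

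**Figure D3:**
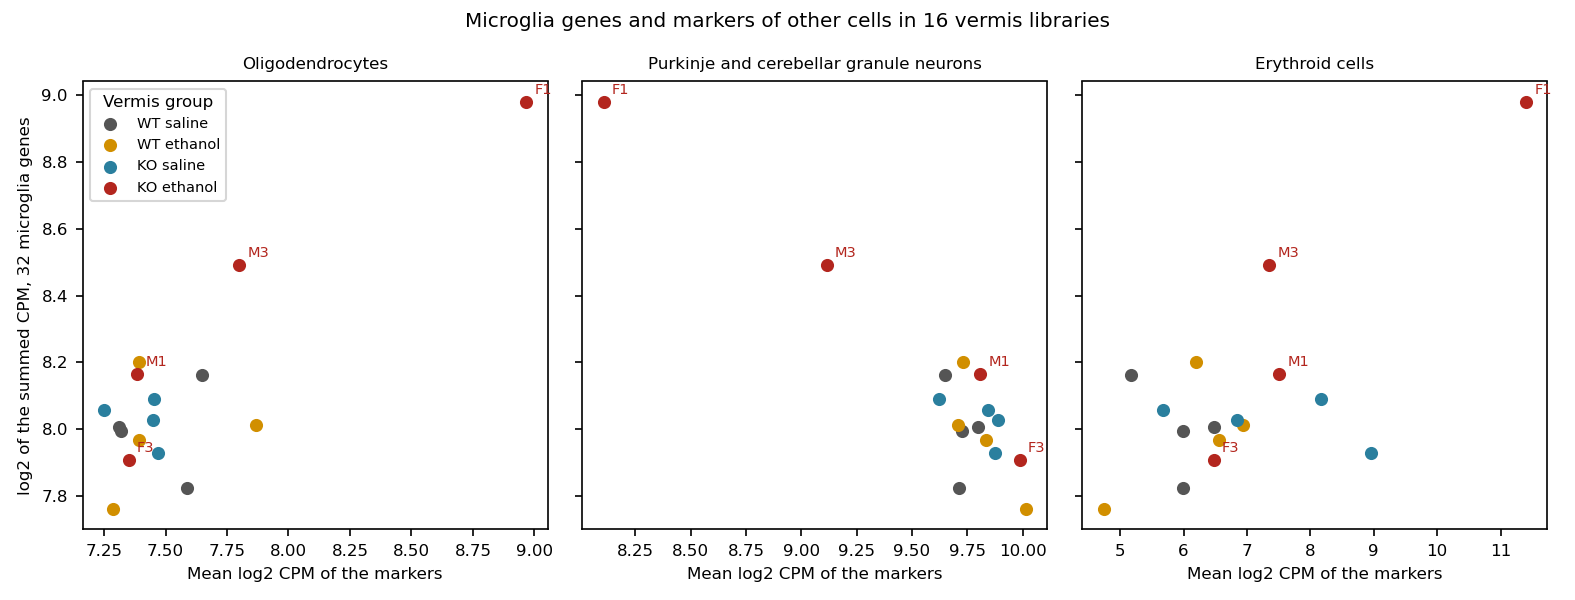
Log2 of the summed CPM of the 32 microglia genes (y axis) against the mean log2 CPM of oligodendrocyte, cerebellar neuron and erythroid markers (x axes) in the 16 vermis libraries, coloured by group, with the KO ethanol libraries named. KO ethanol F1, at 8.97, 8.11 and 11.4, stands alone in each panel, and M3 lies between it and the other libraries for the neuron markers at 9.11.

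**Figure D4:**
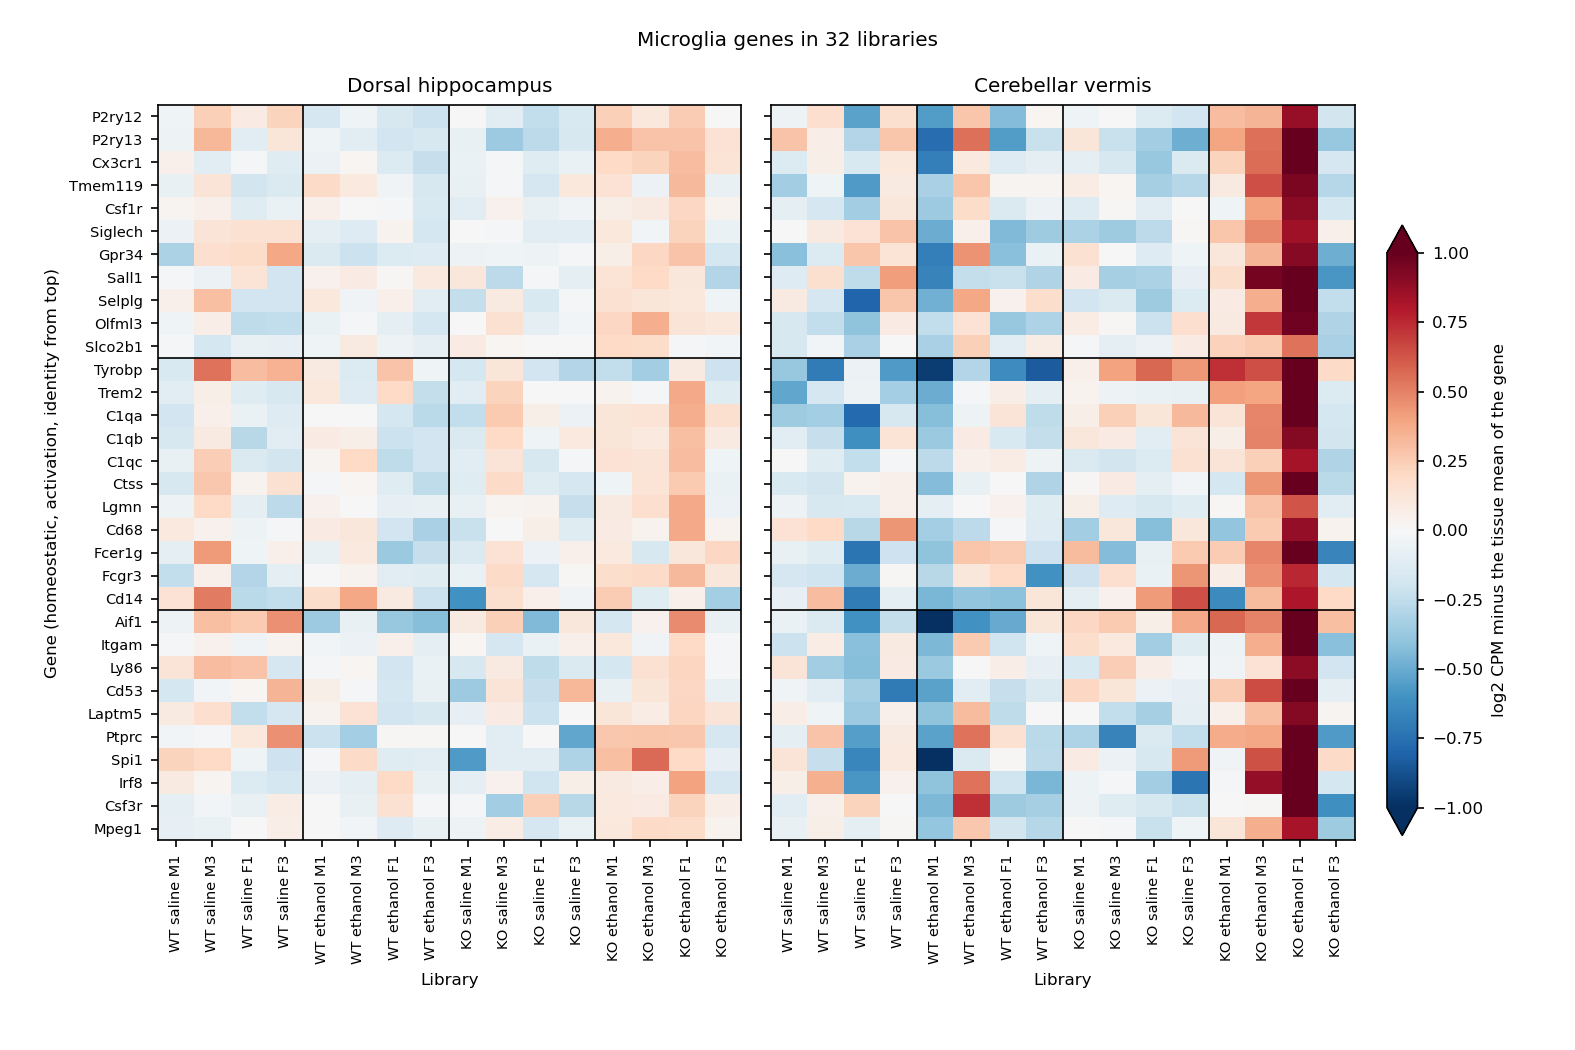
Log2 CPM of each gene minus its mean in the tissue (colour, saturated beyond 1 in either direction), for 32 genes (rows) and 16 libraries per tissue (columns, 4 per group). In the vermis panel KO ethanol F1 has the highest value in all 32 rows, and WT ethanol M1 the lowest in 14.

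Prenatal ethanol in WT mice was compared with saline in each tissue. In hippocampus 0 of 32 genes passed, against 0% of all genes, and 4 had lower and 0 higher values at an unadjusted p under 0.05. The median log2 fold change was -0.03, beside 0.01 over all genes. P2ry12 measured 29.1, 35.4, 31.7 and 35 CPM in M1, M3, F1 and F3 after saline and 26.8, 29.1, 26.8 and 25.9 after ethanol. The ranges did not overlap, by a margin of less than 0.1 CPM, and the difference missed the threshold (log2 -0.28 ± 0.08 SE, adjusted p = 0.298). Aif1 measured 2.33, 2.97, 2.89 and 3.32 CPM after saline and 1.87, 2.3, 1.85 and 1.8 after ethanol, again without overlap (log2 -0.55 ± 0.18, adjusted p = 0.341). Gpr34 measured 7.0, 9.78, 9.89 and 11.4 and 7.88, 7.52, 7.93 and 7.97 CPM, with overlap (log2 -0.28 ± 0.12). In vermis 0 of 32 genes passed against 0.00446% of all genes, 5.32% of which had an unadjusted p under 0.05. Of the 32, 16 had positive and 16 negative fold changes. Siglech, the only one with an unadjusted p under 0.05, measured 3.28, 3.5, 3.63 and 4.0 CPM in M1, M3, F1 and F3 after saline and 2.33, 3.41, 2.42 and 2.57 after ethanol, with overlap (log2 -0.42 ± 0.17, adjusted p = 0.905). Cd68, a lysosomal protein of macrophages, measured 2.63, 2.73, 1.96 and 3.23 CPM after saline and 1.88, 1.98, 2.36 and 2.17 after ethanol, with overlap (log2 -0.34 ± 0.23). DESeq2 called 0 of the 32 genes in either tissue. The balance of signs in vermis depended on single libraries, with 6 of 32 positive without WT ethanol M3 (median -0.18, from -0.01), 21 without WT ethanol M1 (0.06) and 9 without WT saline F1 (-0.09).

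Prenatal ethanol in KO mice came with positive fold changes of nearly all of the genes, without calls. In hippocampus 31 of 32 were positive (median log2 0.16), 9 at an unadjusted p under 0.05, and 0 passed (2 by DESeq2) against 0.0513% of all genes. Over all genes 52.3% were positive and 9.31% had an unadjusted p under 0.05. P2ry13, a purine receptor next to P2ry12 in the genome, measured 8.63, 7.05, 7.58 and 8.14 CPM in M1, M3, F1 and F3 of KO saline and 11.7, 11.1, 11.1 and 10.0 of KO ethanol. The groups did not overlap (log2 0.48 ± 0.10, adjusted p = 0.0914). Cx3cr1 measured 41.3, 42.8, 39.7 and 41.3 CPM in KO saline and 49.4, 50.2, 53.6 and 47.4 in KO ethanol, also without overlap (log2 0.28 ± 0.06, adjusted p = 0.123). P2ry12 measured 29.9, 27.9, 25.2 and 27 and 35.4, 32.3, 35.7 and 29.9 CPM, with overlap only between KO saline M1 and KO ethanol F3 (log2 0.28 ± 0.08, adjusted p = 0.310). Without KO ethanol F1 the median over the 32 genes was 0.08, with 5 at an unadjusted p under 0.05.

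In vermis the same comparison had 31 of 32 positive fold changes (median log2 0.45; homeostatic 0.56, activation 0.36, identity 0.50), with 13 at an unadjusted p under 0.05 and 0 passing (1 by DESeq2) against 0.0891% of all genes. Over all genes 50.6% were positive and 13.3% had an unadjusted p under 0.05. Siglech measured 2.64, 2.57, 2.74 and 3.32 CPM in KO saline and 3.98, 4.59, 5.92 and 3.4 in KO ethanol, and the groups did not overlap (log2 0.68 ± 0.17, adjusted p = 0.221). Cx3cr1 measured 12.9, 12.4, 10.6 and 12.5 and 16.1, 20.3, 29.6 and 12.3 CPM, where KO ethanol F3 lay inside the saline range (log2 0.70 ± 0.22, adjusted p = 0.308). Irf8, an interferon regulatory factor that microglia need, measured 1.9, 1.95, 1.55 and 1.19 and 1.95, 3.63, 4.24 and 1.74 CPM, with overlap (log2 0.85 ± 0.29). Without F1 the median was 0.16 with 2 genes at an unadjusted p under 0.05, and without F3 it was 0.60 with 25 and 4 passing. Over all genes the medians of these fits were 0.01 and -0.003. The shares of all genes called in them are not given here, so these counts cannot be read as particular to the microglia genes.

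The ACSS2 knockout after saline gave no call among the genes in hippocampus. There 0 of 32 passed by edgeR and by DESeq2, against 0.00427% of all genes. Fold changes were negative for 24, with a median log2 of -0.05. Of all genes 8.85% had an unadjusted p under 0.05 in either direction. Of the 32, 4 did, all with lower values in KO. These were P2ry12 (log2 -0.26 ± 0.08, adjusted p = 0.288), P2ry13 (-0.29 ± 0.10), Tyrobp (-0.40 ± 0.16) and Ly86, a partner of a Toll-like receptor relative (-0.26 ± 0.12). Tyrobp measured 3.05, 4.92, 4.19 and 4.31 CPM in WT saline and 2.99, 3.68, 2.96 and 2.76 in KO saline, with overlap. P2ry13 measured 8.77, 11.4, 8.39 and 9.86 CPM in M1, M3, F1 and F3 of WT saline, which overlapped the KO saline values given above. The P2ry12 values of these groups, also given above, overlapped too.

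In saline vermis 0 of 32 genes passed (1 by DESeq2, and 2 higher at an unadjusted p under 0.05), against 4.91% of all genes. An unadjusted p under 0.05 was found for 14.0% of all genes. Tyrobp had the smallest p of the 32. It measured 1.7, 1.36, 2.13 and 1.49 CPM in M1, M3, F1 and F3 of WT saline and 2.29, 2.93, 3.3 and 2.98 of KO saline, without overlap, and missed the threshold (log2 0.78 ± 0.23, adjusted p = 0.0722). C1qa measured 7.15, 7.23, 5.34 and 8.19 and 9.54, 10.8, 9.95 and 11.5 CPM, also without overlap (log2 0.58 ± 0.21, adjusted p = 0.193). Siglech, with the values given above for both groups, had a negative fold change (log2 -0.36 ± 0.17, adjusted p = 0.372). The activation genes had a median of 0.24 and the homeostatic genes of -0.05, the largest gap between these roles in the 10 comparisons of genotype, exposure and their interaction. Without WT saline F1 these medians were 0.12 and -0.18, 15 of 32 were positive in place of 19, and the median over the 32 was -0.03 in place of 0.06. With an offset for gene length the activation median was 0.07 and the homeostatic -0.07. Tyrobp, at 667 bases, is the shortest of the genes, and with the offset its log2 fold change was 0.51.

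The ACSS2 knockout after ethanol gave the only vermis calls. Fold changes of all 32 genes were positive, with a median log2 value of 0.52 (homeostatic 0.52, activation 0.52, identity 0.56), 18 at an unadjusted p under 0.05, and 4 passed, against 7.53% of all genes. Over all genes the median was 0.03, 54.3% were positive and 25.5% had an unadjusted p under 0.05. The homeostatic, activation and identity medians were 0.47, 0.34 and 0.60 with an offset for gene length. Tyrobp, the adaptor through which Trem2 and other receptors signal, measured 1.15, 1.81, 1.44 and 1.25 CPM in M1, M3, F1 and F3 of WT ethanol and 3.68, 3.46, 5.78 and 2.53 of KO ethanol. Every KO library was above every WT library, and the fold was 2.75 (log2 1.46 ± 0.23 SE, adjusted p = 8.95e-04). Siglech measured 2.33, 3.41, 2.42 and 2.57 CPM in WT ethanol and 3.98, 4.59, 5.92 and 3.4 in KO ethanol, where KO F3 lay just below WT M3 (log2 0.74 ± 0.17, adjusted p = 0.0151). Aif1 measured 0.313, 0.561, 0.600 and 0.927 and 1.27, 1.2, 1.99 and 1.05 CPM, without overlap (log2 1.21 ± 0.29, adjusted p = 0.0163). Cd53 measured 1.22, 1.64, 1.5 and 1.6 and 2.1, 2.77, 4.04 and 1.66 CPM, without overlap, though KO F3 and WT M3 lay within 0.1 CPM of each other (log2 0.84 ± 0.24, adjusted p = 0.0441).

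These calls depended on single libraries. Without KO ethanol F1 the median over the 32 genes was 0.24, 31 were positive, 7 had an unadjusted p under 0.05 and 1 passed, Tyrobp (log2 1.21, adjusted p = 0.00232). Aif1, Siglech and Cd53 then had log2 0.99, 0.58 and 0.49 (adjusted p = 0.0795, 0.0603 and 0.203). Without KO ethanol F3, the shallowest library and the lowest of its group for 29 genes, the median was 0.67 and 18 passed, but so did 5092 of all genes. Without WT ethanol M1 or F1 1 gene passed, and without WT ethanol F3 or KO ethanol M3 2 passed. Tyrobp passed with each of the 16 libraries left out in turn. Without WT saline F1, which is in neither group, Cd53 also missed the threshold (adjusted p = 0.0557).

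In the hippocampus of ethanol-exposed mice, 1 of 32 genes passed between KO and WT, against 0.171% of all genes. Of the 32, 29 were positive (median log2 0.18), 10 at an unadjusted p under 0.05, a level reached by 9.92% of all genes. Cx3cr1 measured 41.5, 43.8, 39.3 and 36.7 CPM in WT ethanol and 49.4, 50.2, 53.6 and 47.4 in KO ethanol. The groups did not overlap (log2 0.32 ± 0.06, adjusted p = 0.0459), but the call was lost without any of 14 of the 16 libraries in turn. Without KO ethanol F1 the median over the 32 was 0.10, 26 were positive and 6 had an unadjusted p under 0.05. Olfml3, a secreted matrix protein, measured 13.2, 13.7, 13 and 12.3 and 16, 17.8, 15.1 and 14.9 CPM, without overlap (log2 0.29 ± 0.07, adjusted p = 0.111). P2ry13 measured 8.83, 8.44, 7.97 and 8.13 CPM in WT ethanol, below all KO ethanol values (log2 0.40 ± 0.10, adjusted p = 0.143). Tyrobp, the leading vermis call, had a negative value here (3.59, 3.07, 4.11 and 3.29 CPM in WT ethanol and 2.86, 2.65, 3.61 and 2.93 in KO ethanol, log2 -0.22 ± 0.16, adjusted p = 0.708).

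**Figure D5:**
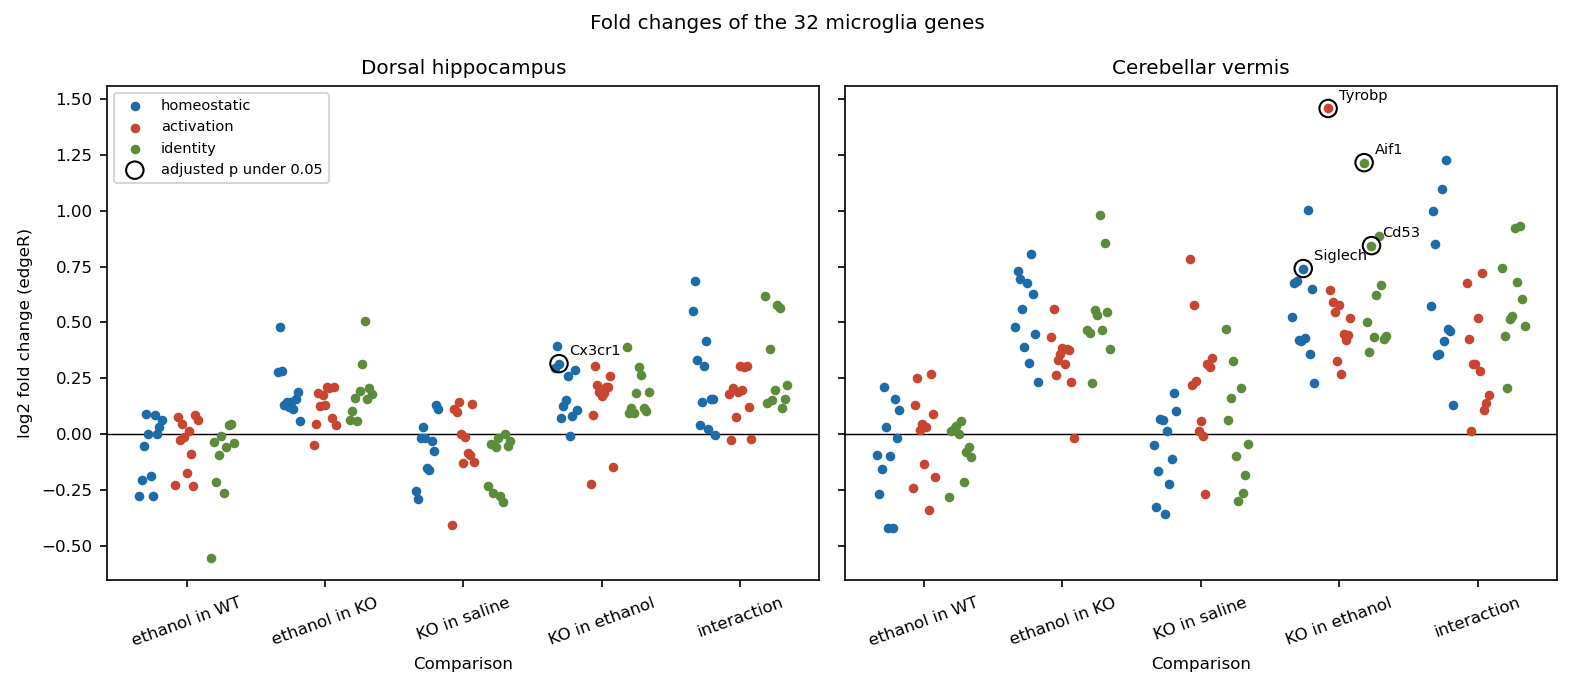
Log2 fold change of each of the 32 genes (points, edgeR) in 5 comparisons (x axis) per tissue, coloured by role, with open circles for an adjusted p under 0.05. Values lie on both sides of 0 for ethanol in WT and for KO in saline, and almost all above 0 for ethanol in KO, KO in ethanol and the interaction, comparisons that share the KO ethanol libraries.

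The interaction asked whether the exposure effect differed between genotypes. In hippocampus 29 of 32 were positive (median log2 0.19) and 0 passed (3 by DESeq2, and 10 higher at an unadjusted p under 0.05) against 0.175% of all genes. An unadjusted p under 0.05 was found for 9.94% of all genes. P2ry12 (0.55 ± 0.11, adjusted p = 0.0531) and P2ry13 (0.68 ± 0.14, adjusted p = 0.0625) came nearest. P2ry12 had log2 -0.28 for ethanol in WT and 0.28 in KO, and P2ry13 had -0.20 and 0.48. For Cx3cr1, at 44.6, 40.2, 42.6 and 39.6 CPM in WT saline, the interaction was 0.33 ± 0.09 (adjusted p = 0.170). The hippocampal median without KO ethanol F1 was 0.14, with 5 genes at an unadjusted p under 0.05. P2ry12 and P2ry13 lie within Med12l, and 9 exon bases of P2ry12 overlap an exon of Med12l on the opposite strand. The strand setting of the counting is not given in the sources used here, so reads of Med12l may be counted for P2ry12. In vermis all 32 were positive (median log2 0.48) and 0 passed (1 by DESeq2, and 6 higher at an unadjusted p under 0.05) against 0.107%. There 11.2% of all genes had an unadjusted p under 0.05. Of the 32, Siglech came nearest (log2 1.1 ± 0.24, adjusted p = 0.129). Sall1, the transcription factor that holds microglial identity, measured 6.95, 8.47, 6.36 and 10.1 CPM in WT saline and 4.78, 6.43, 6.52 and 6.17 in WT ethanol. In KO it measured 8.03, 6.03, 6.11 and 7.16 CPM after saline and 8.59, 14.8, 19.1 and 5.06 after ethanol, where M3 and F1 were above all other vermis libraries and F3 was not (interaction log2 1.23 ± 0.44, adjusted p = 0.362). Cx3cr1 measured 12.6, 14.4, 12.5 and 14.9 CPM in WT saline vermis and 8.59, 14.8, 12.6 and 12.9 in WT ethanol vermis. With the KO values given above, its interaction was log2 0.85 ± 0.31 (adjusted p = 0.370). The vermis median without KO ethanol F1 was 0.16, with 25 of 32 positive and 3 at an unadjusted p under 0.05. Without WT saline F1 9 genes had an unadjusted p under 0.05.

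Whether effects differed between tissues was tested within mice. Tyrobp was the only gene of the 32 whose KO effect passed this test. The effect was higher in vermis than in hippocampus after saline (log2 difference 1.17 ± 0.27 SE, adjusted p = 0.0157) and after ethanol (1.63 ± 0.27, adjusted p = 0.00168). Of all genes 3.36% and 2.39% passed. The saline comparison had no KO ethanol library in its contrast, and without the mouse KO ethanol F1 the log2 difference after ethanol was 1.46 (adjusted p = 0.0122). With an offset for gene length the saline difference was 0.80 (adjusted p = 0.0937) and no longer passed. It also failed to pass without the mouse WT saline M3 or F3 or KO saline F1 or F3 (adjusted p = 0.0752, 0.0582, 0.0692 and 0.0582). The exposure effect differed between tissues for 0 of 32 genes in WT and 0 in KO, against 0% and 0.00409% of all genes, with 0 and 2 of the genes at an unadjusted p under 0.05 and 0 in both by DESeq2. An unadjusted p under 0.05 was found for 4.98% of all genes in WT and 6.03% in KO. Of the 32, Siglech had the smallest p in KO (log2 0.53 ± 0.16, adjusted p = 0.820). Between males and females 0 of 32 genes passed in hippocampus (against 0.0769% of all genes, with 4 higher in males at an unadjusted p under 0.05) and 0 in vermis (0.0535%, with 0). Of all genes 7.65% in hippocampus and 3.16% in vermis had an unadjusted p under 0.05 for sex. Of the 32, Olfml3 in hippocampus had the smallest p (male against female log2 0.17 ± 0.05, adjusted p = 0.524).

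Other genes of microglia and their surroundings were followed in lists that hold none of the 32 genes. Of 18 tested genes of disease-associated microglia, 3 were higher in KO than in WT ethanol vermis and 17 were positive (median log2 0.31). In this comparison 7.53% of all genes were called. The 3 were Cd63, a tetraspanin of endosomes (log2 0.68 ± 0.07, adjusted p = 9.06e-06), Lyz2, lysozyme (1.12 ± 0.28) and Apoe, a lipid carrier that astrocytes also make (0.27 ± 0.07). Without KO ethanol F1, Cd63 passed (log2 0.68, adjusted p = 1.99e-05), while Lyz2 (0.77, adjusted p = 0.0687) and Apoe (0.21, adjusted p = 0.111) did not, and the list's median was 0.18. Apoe also missed the threshold without WT saline F1 (adjusted p = 0.0512). Cd63 was also higher in KO saline vermis (log2 0.51 ± 0.07, adjusted p = 1.83e-04). Markers that define the disease-associated state most narrowly were low in all libraries of vermis, with Cst7 at up to 0.173 CPM and Itgax at up to 0.244 CPM, and Clec7a at up to 0.431. Spp1, osteopontin, which oligodendrocytes also make, measured 6.34, 20.2, 82.2 and 2.66 CPM in KO ethanol vermis. Of 18 interferon genes 1 passed in that comparison, Ifitm3 (0.64 ± 0.19, adjusted p = 0.0494). Of 16 genes of the microglial niche 1 passed, Tgfbr2, a receptor for TGF-beta (0.73 ± 0.13, adjusted p = 0.00187). The shares of both lists are below that of all genes. Tgfbr2 passed without KO ethanol F1 (adjusted p = 0.00447) and Ifitm3 did not (log2 0.50, adjusted p = 0.176), and without WT saline F1 Ifitm3 also missed the threshold (adjusted p = 0.0660).

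Among inflammatory cytokines and sensors, Nfkbia, the inhibitor of NF-kappa-B that NF-kappa-B itself induces, was the only gene called in a comparison of genotype or exposure within a tissue, and it was lower. In KO mice it fell after ethanol in hippocampus (log2 -0.57 ± 0.07, adjusted p = 0.00959) and in vermis (-0.48 ± 0.08, adjusted p = 0.0339), while 31 of the 32 microglia genes had positive values in each of these comparisons. The interaction passed for it in each tissue (log2 -0.66 and -0.70). Without KO ethanol F1 the fold change after ethanol in KO vermis was -0.44 and missed the threshold (adjusted p = 0.0834), and that in hippocampus was -0.57 (adjusted p = 0.0307). The vermis interaction missed it without WT saline F1 (adjusted p = 0.0574). Single genes of the blood and border cell lists counted above also passed in KO against WT ethanol vermis, where 7.53% of all genes were called. Among them were Hbb-bs (log2 4.0 ± 1.1), Folr2, a macrophage folate receptor (3.03 ± 0.69), and Ccr2, a monocyte chemokine receptor (1.99 ± 0.57). Folr2 passed without KO ethanol F1 (log2 3.14, adjusted p = 0.0272), while Hbb-bs (1.84, adjusted p = 0.262) and Ccr2 (1.59, adjusted p = 0.163) did not. Hbb-bs also missed the threshold without WT saline F1 (adjusted p = 0.0559). The part of blood and border cells in the microglia values was not tested.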

How the data were processed

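PolyA RNA-seq counts of 32 libraries (16 mice, 2 tissues) were analysed. The authors deposited whole-number gene counts per library, made with cutadapt 5.0, STAR 2.7.10a and featureCounts 2.0.6 on GRCm39, per the submitters' processing notes. Neither the strand setting nor the way fragments were counted is given in the sources used here. Between 80.8% and 89.0% of counts under 100 were even numbers, as when both mates of a pair are counted, and this makes counting error larger than the totals imply. Totals were 23085928 to 96664509, so that 1 CPM stood for at least 23.1 counts.

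CPM and RPKM were computed from the deposited counts and exon lengths. Library sizes for CPM were the totals over genes that passed the filter, scaled by TMM within each tissue. Log2 CPM used a prior count of 2. Tests were quasi-likelihood F-tests in edgeR 4.0.16 (R 4.3.3), with TMM scaling, the default low-count filter by group and Benjamini-Hochberg adjustment at 0.05 over all genes tested. Each tissue had a model of 4 groups and sex over its 16 libraries, and differences between tissues had a model of 32 libraries with mouse as a block. The shared label F1, F3, M1 or M3 names different mice in different groups. Correlations of same-label deviations between groups ran from -0.291 to 0.413, and the same label gave the highest correlation in 10 of 32 cases. These values do not settle whether the label marks a block shared across groups. Labels name no litters, so the p-values rest on mice that may share one. No pair of the 48 replicate pairs agreed within sampling noise (lowest chi-square per degree of freedom 8.41). The alternatives were DESeq2 1.42.0, RLE scaling, no filter, an offset for gene length, the label as a block, no sex term and leaving out each library. The tests were tried on simulated counts.

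The 32 genes, their roles and all lists were chosen with earlier results of these data known. Values in every library are given for genes that passed a comparison within a tissue, or else for the 3 ranked lowest by p, and between tissues for up to 8 genes as ranges. The sex comparisons, the tissue comparisons of ethanol and knockout effects and some repeats give fold changes only, and not for every ranked gene. Exon overlaps came from GENCODE M21 (GRCm38) by symbol. Some items are not reported here.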

Additional observations from a re-analysis of the deposited data

Results flagged for a closer look

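In 11 of 176 sets of 4 libraries the highest or lowest library stood far from the other 3, by a criterion that chance meets in about 1 of 20 sets, so this number is close to what chance gives. WT saline hippocampus M3 had a mean over the activation genes of 3.54 log2 CPM (others 3.22 to 3.25) and a difference from the homeostatic genes of -0.845 (others -1.03 to -1.02). WT saline vermis F1 was lowest for the identity genes, at 1.10 log2 CPM against 1.42 to 1.46. KO ethanol hippocampus F1, the hippocampus of the mouse whose vermis stood apart, was highest for C1qa at 24 CPM (others 20.3 to 20.9) and for Cd68 at 6.92 CPM (others 5.46 to 5.63). Siglech was lowest in WT saline hippocampus M1, at 11 CPM against 12.6 to 12.8. In WT ethanol hippocampus, Aif1 was highest in M3 at 2.30 CPM (others 1.80 to 1.87) and Irf8 in F1 at 4.97 CPM (others 4.07 to 4.16). In vermis, C1qc was highest in KO saline F3 at 11.1 CPM (others 8.80 to 9.08), Trem2 in KO saline M1 at 2.56 CPM (others 2.37 to 2.40) and Cd14 in WT ethanol F3 at 0.991 CPM (others 0.660 to 0.690).

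The effect of the ACSS2 knockout on Tyrobp differed between the tissues, by 1.17 on the log2 scale after saline and by 1.63 after ethanol, vermis minus hippocampus (edgeR with mouse as a block, adjusted p = 0.0157 and 0.00168). The saline difference missed the threshold with an offset for gene length (adjusted p = 0.0937) and without the mouse WT saline M3 or F3 or KO saline F1 or F3 (adjusted p = 0.0752, 0.0582, 0.0692 and 0.0582).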

How the results depend on the processing

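Counts of the 32 genes that passed are given here as main value and alternative, and no fold change of a named gene changed sign. Several medians near 0 did. Over the 32 genes for KO in saline vermis, 0.06 became -0.03 without WT saline F1, and for males against females in vermis -0.06 became 0.09 without KO ethanol F1. With DESeq2 the number went from 0 to 2 for ethanol in KO hippocampus, from 1 to 3 for KO in ethanol hippocampus, from 0 to 3 for the hippocampal interaction, and from 0 to 1 for ethanol in KO vermis, KO in saline vermis and the vermis interaction. It went from 4 to 9 for KO in ethanol vermis, where DESeq2 called 2921 of all genes against 1690, and from 1 to 2 for KO by tissue in ethanol. For the other DESeq2 counts the calls over all genes are not given, and shares of all genes printed beside them above are from edgeR. The changes can therefore not be read as particular to the 32 genes. Without the low-count filter 1 gene passed for ethanol in KO hippocampus, 2 for the hippocampal interaction and 1 for KO in saline vermis. With the replicate block, 0 passed for KO in ethanol hippocampus and 1 for KO in saline vermis, and no other count changed by over 1.5 times. Whether the shared label marks a block of mice is not known. Without the sex term 0 passed for KO in ethanol hippocampus. With the gene-length offset 0 passed for KO by tissue in saline. Cd53 in KO against WT ethanol vermis also missed the threshold with the gene-length offset (adjusted p = 0.0803) and the replicate block (0.0585). A replicate block could not be run for sex, which the label holds.

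Leaving out 1 library in turn gave 0 to 1 for KO in ethanol hippocampus (kept only without WT saline M1 or M3) and 0 to 1 for the hippocampal interaction (1 without WT saline M1). It gave 0 to 4 for ethanol in KO vermis (4 without KO ethanol F3), 0 to 2 for KO in saline vermis (2 without KO ethanol F1, 1 without KO ethanol F3), 1 to 18 for KO in ethanol vermis (18 without KO ethanol F3) and 0 to 2 for the vermis interaction (2 without KO ethanol F3, 1 without WT ethanol M3). Leaving out 1 mouse gave 0 to 1 for KO by tissue in saline and 1 to 2 for KO by tissue in ethanol (2 without WT ethanol M3 or KO ethanol F3). The cause of these changes was not tested.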
